A study of Mus musculus with 9 samples.

Results

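The 9 genes described here encode cytokines or cytokine chains of the IL-12, IL-6 and IL-10 families, namely Il23a, Il12a, Il12b, Il27, Ebi3, Osm, Lif, Il6 and Il10. They were taken by symbol from 46517 genes measured in neutrophils of tumor-bearing mice, and all 9 were found. The set was selected on the tumor values of Il23a, so its values in tumor-infiltrating neutrophils are a description, and nothing is read from calls on its members in that compartment. The question asked of them is which partner chains were present where Il23a was.

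Neutrophils of OT mice were sequenced in 9 libraries, 3 each from bone marrow, from blood and from the pancreatic tumor. OT mice were C57BL/6 animals given orthotopic transplants of a luciferase-expressing pancreatic tumor line derived from a genetic mouse model of pancreatic cancer, and neutrophils were taken on day 27. All 3 compartments therefore came from tumor-bearing animals, no library of animals without a tumor was analysed here, and the age of the mice is not given in the sources used here. The cells of 5 mice were pooled for each library, and the study's methods describe 3 independent experiments, without saying whether equal library numbers mark the same one. The gate was CD45+, negative for CD3, B220 and NK1.1, and Ly6G+ Ly6C+, although the labels describe the bone marrow cells as Ly6G.hi and the others as Ly6G+. All tumors grew from a single cell line, and pooling hides the spread between mice.

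Cytokines of the IL-12 family are pairs of chains that must be made in the same cell to be secreted efficiently. IL-23 joins the p19 chain (Il23a) to the p40 chain (Il12b), IL-12 joins p35 (Il12a) to the same p40 chain, IL-27 joins p28 (Il27) to EBI3, and IL-35 has been described as p35 with EBI3. The p40 chain is classically made by activated dendritic cells and macrophages, and IL-23 sustains T cells and innate lymphocytes that produce IL-17. Oncostatin M (Osm), leukemia inhibitory factor (Lif) and IL-6 (Il6) signal through the shared gp130 receptor chain (Il6st) and STAT3, whereas IL-10 (Il10) restrains myeloid cells through Il10ra and Il10rb. Neutrophils are a known source of oncostatin M.

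The libraries held between 4580807 and 7949367 reads on genes. Reads were recovered from the deposited log2 FPKM values, and levels are given here either as reads or as FPKM per exon length, that is, the usual FPKM with the length of the merged exons and the library sizes as scaled by the authors. The 11 neutrophil markers were all detected in every library, with sums over the list of 90418 to 99094 RPM (reads relative to the scaled library size) in bone marrow, of 41020 to 43524 in blood and of 12860 to 15725 in tumor. Markers of other cells did not stay at one level. The 10 markers of pancreatic epithelium summed to between 10.4 and 13.3 RPM in bone marrow, between 25.4 and 175 in blood and between 2658 and 4998 in tumor, and the 10 fibroblast markers to 9.42 to 16.1, 2.56 to 9.62 and 987 to 1124 RPM. Blood library 2 was the one at 175 RPM, and it stood apart from the other blood libraries in this respect.

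The libraries of tumor-infiltrating neutrophils had a high level of Il23a RNA and none of its partner Il12b was detected. Oncostatin M had the highest level of the 9 genes, Lif, Il6 and Il10 were also higher in tumor than in blood, and both chains of IL-27 were lower in tumor than elsewhere. Il12a did not separate the compartments. In bulk RNA, fewer cells of a type and less RNA per cell cannot be told apart, and which cells carried these transcripts was not tested.

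**Figure D1:**
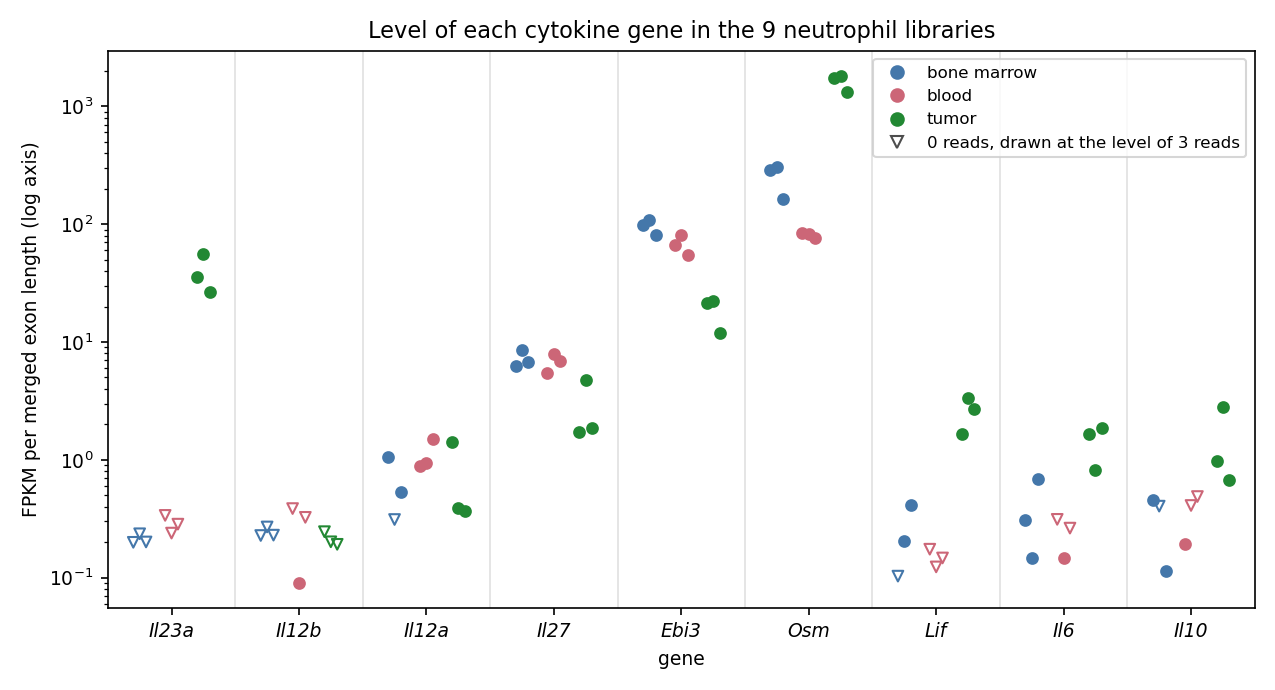
Each point is 1 library, with FPKM per merged exon length on a log axis and the 9 cytokine genes along the horizontal axis. Open triangles stand for libraries with 0 reads, drawn at the level that 3 reads would give. Il23a has points above its triangles in tumor only, at 26.4 to 56.1, Osm is the highest gene in tumor, and Il12b has a single point, from 1 read in blood.

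Il23a (ENSMUSG00000025383.1, chromosome 10, 128296139 to 128298752 on the minus strand, GRCm38) had 0 reads in each of the 6 libraries of bone marrow and blood. In tumor it had 499, 954 and 471 reads, which were 35.8, 56.1 and 26.4 FPKM per exon length. The 3 tumor libraries thus stood apart from all others, with tumor library 2 the highest. With 3 reads per library as the limit that a count of 0 allows, Il23a in tumor exceeded blood at least 137-fold and bone marrow at least 186-fold. The gene model behind the deposited values is 1945 bases long, shorter than the 2247 exon bases of the annotation used here, so the FPKM of Il23a is a low estimate beside that of the other genes. No other gene of GENCODE M21 overlaps it.

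Il12b (chromosome 11, 44400063 to 44414033), the p40 chain that IL-23 and IL-12 share, had 0 reads in all tumor and bone marrow libraries, and 0, 1 and 0 reads in blood. The single read fell in blood library 2. A count of 0 allows up to 0.246, 0.202 and 0.192 FPKM per exon length in tumor libraries 1, 2 and 3. Against that limit, Il23a exceeded Il12b at least 146-fold, 278-fold and 137-fold in the same libraries. Il12b, the partner of Il23a in IL-23, was therefore not detectable at this depth in any library that carried Il23a.

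Il12a (chromosome 3, 68690644 to 68698547), the p35 chain, was close to the limit of detection everywhere. It had 12, 0 and 6 reads in bone marrow, 6, 9 and 12 in blood and 15, 5 and 5 in tumor. The 3 ranges overlapped, and blood did not differ from bone marrow beyond the spread of the libraries (log2 difference 2.25, standard error 1.34, limma adjusted p = 0.259). Per exon length, Il23a exceeded Il12a 25.2-, 144- and 71.3-fold in the 3 tumor libraries, whereas in blood Il12a was the one detected.

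The chains of IL-27 were the reverse of Il23a. Ebi3 (chromosome 17, 55952640 to 55957022) had 757, 713 and 614 reads in bone marrow, 306, 520 and 296 in blood and 154, 195 and 110 in tumor. The antisense gene Gm16712 shares 2252 bases with Ebi3, and since counting was not stated to use strand, reads of the pair cannot be told apart. In FPKM per exon length this was 98.1, 109 and 80.1 in bone marrow, 67.1, 80.7 and 54.7 in blood and 21.5, 22.3 and 12 in tumor. The tumor libraries lay below all others, and bone marrow and blood overlapped. The mean level in tumor was 3.63-fold below blood and 5.15-fold below bone marrow. Between blood and bone marrow the log2 FPKM of Ebi3 differed by -0.51 (standard error 0.26, limma adjusted p = 0.154), and without tumor replicate 3, which enters the shared estimate of the spread, the adjusted p was 0.0470 in limma.

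Il27 itself (chromosome 7, 126589010 to 126594941, minus strand), the p28 chain, had 43, 49 and 46 reads in bone marrow, 22, 45 and 33 in blood and 11, 37 and 15 in tumor. Apobr, on the other strand, shares 103 bases with it. Its FPKM per exon length was 6.30, 8.48 and 6.78 in bone marrow, 5.45, 7.89 and 6.89 in blood and 1.74, 4.79 and 1.85 in tumor. All tumor libraries were below all others on this scale, although tumor library 2 came close to the lowest blood library. Blood and bone marrow did not differ detectably (log2 difference -0.10, standard error 0.40, limma adjusted p = 0.876). The mean tumor level was 2.42-fold below blood and 2.57-fold below bone marrow. This difference depended on the scaling. With plain library totals, which raise every gene in tumor by 0.45 on the log2 scale against either compartment, the log2 difference from blood went from -1.41 to -0.96. Without blood replicate 2 it was -1.29.

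Ebi3 was in excess of Il27 in all 9 libraries. The ratio of their levels per exon length was 15.6, 12.9 and 11.8 in bone marrow, 12.3, 10.2 and 7.94 in blood and 12.4, 4.66 and 6.49 in tumor. Since both chains were lower in tumor, their ratio there overlapped with that in blood. In tumor Il23a was the more abundant of Il23a and Ebi3, by 1.66-, 2.51- and 2.20-fold, while outside tumor Ebi3 was present with 0 reads of Il23a. Of the cytokine pairs named above, transcripts of both chains of IL-27 were thus detected in all compartments. Those of p35 and EBI3 were both detected in all libraries but bone marrow library 2, and those of IL-23 and of IL-12 in no tumor library.

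**Figure D2:**
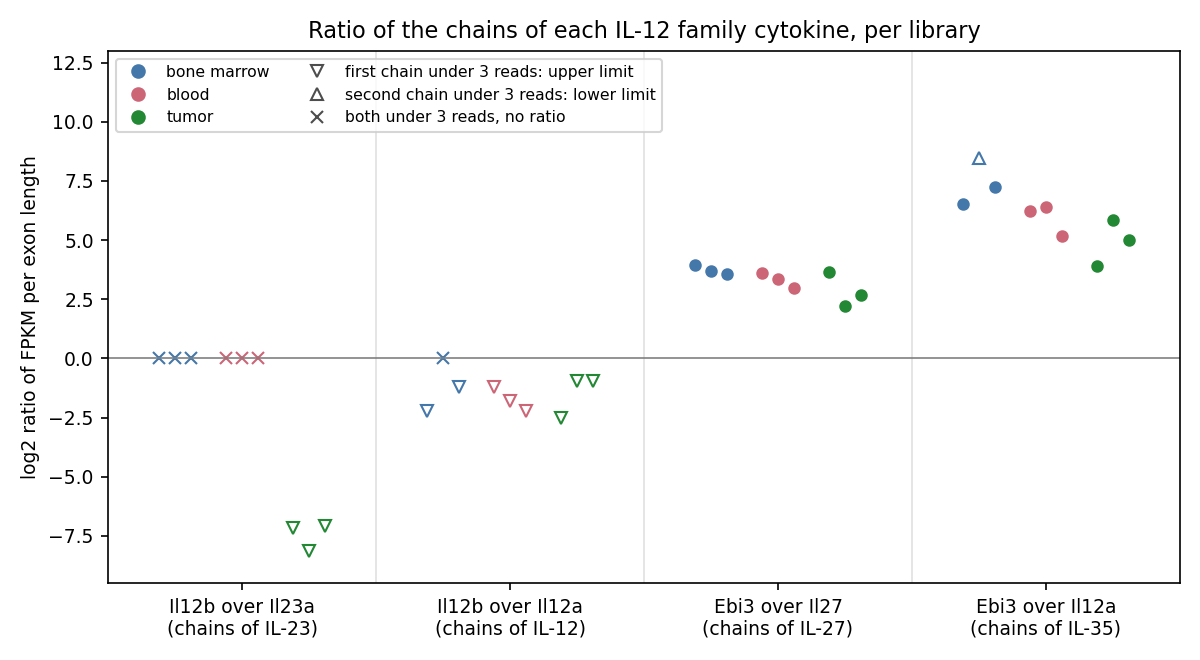
The log2 ratio of FPKM per exon length between the 2 chains of each cytokine is shown per library, with 0 for equal levels. Triangles pointing down are upper limits, where the first chain had fewer than 3 reads, triangles pointing up are lower limits, and crosses mark libraries where neither chain reached 3 reads. For IL-23 the tumor libraries lie at or below -7.10, whereas Ebi3 over Il27 stays above 0 in every library.

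Osm (chromosome 11, 4236420 to 4241026) was the most abundant gene of the set in tumor. It had 4408, 3896 and 2458 reads in bone marrow, 750, 1052 and 810 in blood and 24439, 31003 and 23983 in tumor. In FPKM per exon length this was 290, 303 and 163 in bone marrow, 83.5, 82.9 and 76.0 in blood, and 1622 ± 257 (SD, n = 3) in tumor. The 3 compartments did not overlap. The mean level in tumor was 20.1-fold above blood and 6.44-fold above bone marrow. Blood neutrophils had less Osm than bone marrow neutrophils, by 1.59 on the log2 FPKM scale (standard error 0.24, limma adjusted p = 0.0014), so the order of levels was tumor, bone marrow and blood.

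Lif lies 16530 bases from the end of Osm (chromosome 11, 4257557 to 4272514) and encodes a cytokine of the same receptor family. It had 0, 5 and 12 reads in bone marrow, 0, 0 and 0 in blood and 45, 110 and 93 in tumor. Every tumor library lay above every other library. The tumor level was at least 17.3-fold above blood, taking 3 reads per library as the limit, and the ratio of scaled reads to bone marrow was 12.8, with an exact 95% interval from 7.81 to 22.3 that covers counting error only. Per exon length Lif reached 1.67, 3.34 and 2.69 FPKM in tumor, far below Osm.

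Il6 (chromosome 5, 30013114 to 30019981) was a low transcript throughout, with 5, 2 and 11 reads in bone marrow, 0, 2 and 0 in blood and 25, 15 and 36 in tumor. Tumor lay above the others in every library. The ratio of scaled reads was 24.9 (exact 95% interval 6.66 to 209, counting error only) against blood and 3.69 (2.19 to 6.56) against bone marrow. In limma with the filter on reads, Il6 in tumor was not called against bone marrow, and passed in 1 of 11 alternatives. In blood Il6 was below bone marrow by 3.32 on the log2 FPKM scale (standard error 1.00, limma adjusted p = 0.0377, among genes kept for reaching 5 reads in some library). That difference did not hold up when libraries were left out. It was lost without any one of bone marrow 1 or 3, blood 1 or 3, or tumor 1, 2 or 3, with adjusted p from 0.0579 to 0.126 in limma, and both blood reads came from library 2.

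Il10 (chromosome 1, 131019845 to 131024974) had 4, 0 and 1 reads in bone marrow, 1, 0 and 0 in blood and 8, 28 and 7 in tumor. All tumor libraries were above all others, with tumor library 2 well above the remaining pair. The ratio of scaled reads was 28.2 (exact 95% interval 4.79 to 1138) against blood and 7.52 (2.99 to 24.3) against bone marrow, again for counting error only. In limma with the filter on reads, Il10 in tumor was not called against bone marrow, and passed in 3 of 11 alternatives. It reached the 5 reads of that filter in tumor only. In FPKM per exon length Il10 was 0.984, 2.83 and 0.673 in tumor. Blood and bone marrow, with at most 4 reads in a library, could not be distinguished (limma adjusted p = 0.535).

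Ranked by FPKM per exon length in tumor, Osm came first, Il23a next at 26.4 to 56.1 and Ebi3 after it at 12 to 22.3, and these 3 ranges did not overlap. Il27 (1.74 to 4.79), Lif (1.67 to 3.34), Il10 (0.673 to 2.83), Il6 (0.817 to 1.87) and Il12a (0.370 to 1.42) followed with overlapping ranges, so their order is not resolved, and Il12b was below its limit. In blood and bone marrow, Osm and Ebi3 led and Il27 came next. In bone marrow Osm stood above Ebi3 in all libraries, whereas in blood their ranges met (76.0 to 83.5 for Osm and 54.7 to 80.7 for Ebi3).

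Differential expression was tested with limma on the log2 FPKM of genes with a value over 0 in at least 3 libraries, 7794 genes in all. Only 4 of the 9 members passed that filter (Il23a, Il27, Ebi3 and Osm). The others had few reads, and the deposited values divide by the whole length of the gene, introns included. Of these 4, Il23a and Osm were called higher and Il27 and Ebi3 lower in tumor, against blood and against bone marrow alike. Among all genes tested, 28.1% were higher and 34.5% lower in tumor than in blood, and 22.4% were higher and 32.9% lower than in bone marrow, so calls were common throughout. The split depended on the scaling, and with plain library totals 2923 of these genes were higher and 1898 lower than in blood, and 2601 higher and 1634 lower than in bone marrow. Il23a would not have passed the filter without its tumor values. Since the set was selected on this contrast, nothing is read from these counts, and both tumor comparisons use the same tumor libraries. Between blood and bone marrow, 1 of the 4 differed (Osm, lower in blood), beside 20.6% of genes higher and 23.6% lower in blood.

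With a filter of 5 reads or more in 1 or more libraries in place of the FPKM filter, 17714 genes and 8 members were tested, all but Il12b. Against blood 5 of these 8 were higher and 2 lower in tumor, where 32.4% of all genes tested were higher and 20.2% lower. Against bone marrow 3 were higher and 2 lower, beside 25.2% and 18.4% of all genes. Plain totals shifted this background too, to 7305 higher and 2492 lower than in blood and 6290 higher and 2097 lower than in bone marrow. The set was selected on the tumor values. Il23a had no reads outside tumor with which to pass this filter, and Il10 reached 5 reads in tumor only. Nothing is read from these counts either. Osm and Il6 were called lower in blood than in bone marrow, beside 16.3% of all genes lower and 12.6% higher.

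The stretches around the start sites of 4 members are shown. They set genes whose tumor libraries lay above all others (Il6, Lif) beside one that was lower (Ebi3) and one without reads there (Il12b). Each runs from 250 bases before to 50 bases after the annotated start, on the plus strand of GRCm38.p6 (RefSeq), and a RefSeq stretch was matched for 5 of the 9 members. Capitals mark matches to a kB motif, to AP-1 (TGANTCA), to C/EBP (TTNNGNAA) or to a hypoxia response core (ACGTG or GCGTG), searched on both strands. No 2 matches overlapped in these stretches. The positions are chr5:30012864-30013163 for Il6, chr11:4257318-4257617 for Lif, chr17:55952373-55952672 for Ebi3 and chr11:44399813-44400112 for Il12b.
Il6: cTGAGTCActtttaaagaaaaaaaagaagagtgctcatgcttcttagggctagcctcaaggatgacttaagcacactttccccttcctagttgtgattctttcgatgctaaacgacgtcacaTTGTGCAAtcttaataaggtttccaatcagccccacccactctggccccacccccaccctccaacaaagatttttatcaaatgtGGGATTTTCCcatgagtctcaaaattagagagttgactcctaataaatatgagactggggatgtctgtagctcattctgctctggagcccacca
Lif: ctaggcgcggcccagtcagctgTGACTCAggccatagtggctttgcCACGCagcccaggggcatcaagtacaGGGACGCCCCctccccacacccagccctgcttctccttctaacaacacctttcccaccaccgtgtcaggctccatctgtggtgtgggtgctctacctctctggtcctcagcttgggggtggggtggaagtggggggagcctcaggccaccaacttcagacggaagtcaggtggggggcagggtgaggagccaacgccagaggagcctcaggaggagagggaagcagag
Ebi3: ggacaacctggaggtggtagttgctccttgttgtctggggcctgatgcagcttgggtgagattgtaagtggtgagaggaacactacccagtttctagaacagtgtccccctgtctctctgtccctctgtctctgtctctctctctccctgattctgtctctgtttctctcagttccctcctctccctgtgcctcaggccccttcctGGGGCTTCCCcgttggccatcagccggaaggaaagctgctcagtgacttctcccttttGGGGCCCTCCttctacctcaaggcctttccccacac
Il12b: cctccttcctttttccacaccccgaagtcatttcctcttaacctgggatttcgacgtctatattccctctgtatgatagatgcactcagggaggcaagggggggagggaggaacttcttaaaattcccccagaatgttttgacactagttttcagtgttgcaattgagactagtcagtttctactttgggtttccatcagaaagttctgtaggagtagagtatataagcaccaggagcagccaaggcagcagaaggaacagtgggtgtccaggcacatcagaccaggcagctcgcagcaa

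Counting from the start site as 0, Il6 had a kB match at -44 to -35, a C/EBP match at -128 to -121 and an AP-1 match at -249 to -243. Lif had a kB match at -178 to -169, an AP-1 match at -228 to -222 and a hypoxia core at -204 to -200. Ebi3 had kB matches at -44 to -35 and at 14 to 23, and the Il12b stretch held none of these letters. Of 32851 RefSeq stretches of the same length, 8.46% held a kB match, 7.81% an AP-1 match, 40.7% a C/EBP match and 43.8% a hypoxia core. A kB match was thus present in members that were higher and in one that was lower in tumor, and a match is a description of the sequence only.

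Among the 14 other ligands of these families, Clcf1, which signals through gp130 and the LIF receptor, was the only one that passed the FPKM filter. It had 21, 4 and 10 reads in bone marrow, 19, 29 and 25 in blood and 172, 158 and 351 in tumor. The tumor libraries lay above all others, and the mean level there was 6.05-fold above blood and 17.3-fold above bone marrow. Clcf1 passed that filter only through its tumor values, so these folds are given as a description. Its difference between blood and bone marrow of 1.74 (adjusted p = 0.0282) was lost without bone marrow replicate 2 or 3 or without any single blood library, with adjusted p between 0.0601 and 0.0698 in limma. It was also lost with limma-voom, with log2(FPKM + 1) and with no filter (limma adjusted p = 0.0878, 0.149 and 0.153). Il19, Il20, Il22, Il31, Iltifb, Ifnl2 and Ifnl3 had 0 reads in all 9 libraries, and Il11 had 1, 0 and 2 in tumor.

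Receptor chains listed for these cytokines went in both directions. The list also counts Crlf2, a receptor chain for TSLP, which is outside these families. With the filter on reads, 16 of 19 receptor genes were tested, and 4 were higher and 5 lower in tumor than in blood, beside 32.4% and 20.2% of all genes. Against bone marrow 4 were higher and 3 lower, beside 25.2% and 18.4% of all genes, and nothing particular to the receptors is read from these counts. They include Osmr and Il12rb2, which passed the filter only through tumor and only through blood, respectively. Their median log2 difference was -0.50 against blood and 0.15 against bone marrow, beside 0.50 and 0.29 over all genes tested. With the FPKM filter only 5 receptor genes were tested. Of these, 1 was higher and 4 lower than in blood, beside 28.1% and 34.5% of all genes. Against bone marrow 1 was higher and 3 lower, beside 22.4% and 32.9%. With plain totals, the filter on reads gave 6 receptor genes higher and 4 lower than in blood, and 6 higher and 2 lower than in bone marrow. Of all 17714 genes, 7305 were then higher and 2492 lower than in blood, and 6290 higher and 2097 lower than in bone marrow.

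For the gp130 cytokines, Osmr, the oncostatin M receptor, had 158, 188 and 225 reads in tumor, against 0, 1 and 0 in blood and 0 in all bone marrow libraries. The ratio of scaled reads to blood was 374 (exact 95% interval 66.9 to 14802), and the level was at least 55.0-fold above bone marrow. Since Osmr passed the filter only through tumor, these values are a description. Il6st, the gp130 chain, had 54, 31 and 64 reads in bone marrow, 28, 18 and 21 in blood and 255, 299 and 466 in tumor. It was higher in tumor by 3.28 than in blood and by 2.60 than in bone marrow, each with a standard error of 0.39 (limma adjusted p = 0.000204 and 0.000861). Lifr, the LIF receptor, rose against bone marrow by 1.77 (limma adjusted p = 0.00121) with 259, 354 and 342 reads in tumor. Against blood the difference was 0.48 (limma adjusted p = 0.182), and it passed as 0.93 when plain totals replaced the scaling (adjusted p = 0.0294 in limma). Il11ra1, the IL-11 receptor, named here after its values were seen, was higher than in blood by 1.94 (limma adjusted p = 0.00741).

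Il6ra, the ligand-binding chain of the IL-6 receptor, went the other way. It had 1482, 1575 and 1267 reads in bone marrow, 2321, 4268 and 3047 in blood and 898, 1229 and 1003 in tumor. Tumor was lower than blood, with a log2 difference of -2.21 (standard error 0.17, limma adjusted p = 2.47e-05). Blood was 1.54 higher than bone marrow (limma adjusted p = 0.000346). Against bone marrow the tumor difference of -0.66 (limma adjusted p = 0.0128) shrank to -0.21 with plain library totals (adjusted p = 0.222). Crlf2 and Ifnlr1, receptor chains for TSLP and type III interferon, were also lower in tumor, with log2 differences of -2.04 and -1.93 from blood (limma adjusted p = 4.49e-06 and 3.48e-05).

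The receptors of the IL-12 family had few reads. Il23r, the chain specific to the IL-23 receptor, had 0 reads in all tumor libraries, and 2, 0 and 0 in blood and in bone marrow. Il12rb1, shared by the IL-12 and IL-23 receptors, had 7, 0 and 1 reads in tumor and 3 to 13 in the others. Its log2 difference was -2.75 against blood and -2.88 against bone marrow (limma adjusted p = 0.0734 and 0.0724), and both passed without tumor replicate 1 (adjusted p = 0.0065 and 0.0070 in limma). Il12rb2, the second chain of the IL-12 receptor, had 3, 0 and 0 reads in bone marrow, 14, 24 and 12 in blood and 1, 0 and 0 in tumor. All blood libraries lay above all others, and the ratio of scaled reads in tumor to blood was 0.0131 (exact 95% interval 0.000325 to 0.0764, counting error only), a description since Il12rb2 passed the filter only through blood. Il27ra, the IL-27 receptor, had 29, 22 and 14 reads in blood and 9, 3 and 0 in tumor, with a limma adjusted p of 0.0683 that became 0.0427 without bone marrow replicate 2 and 0.0433 without tumor replicate 1.

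Both chains of the IL-10 receptor were well covered. Il10ra, the ligand-binding chain, had 347, 232 and 280 reads in bone marrow, 889, 996 and 815 in blood and 1728, 2527 and 1779 in tumor. It rose from bone marrow to blood by 2.09 and from bone marrow to tumor by 2.62 on the log2 scale, with a standard error of 0.18 (limma adjusted p = 9.64e-05 and 1.47e-05). Its further difference of 0.53 between blood and tumor (limma adjusted p = 0.0323) was lost without blood replicate 2 or 3 or tumor replicate 1 or 2, with adjusted p from 0.0747 to 0.0975. The shared chain Il10rb differed by -0.56 from blood to tumor (limma adjusted p = 0.00782), and by -0.11 once the libraries were scaled to plain totals (adjusted p = 0.419 in limma). From bone marrow to tumor it differed by 0.20 (limma adjusted p = 0.254), and by 0.65 with plain totals (limma adjusted p = 0.0013). Over the 5 receptor genes that passed the FPKM filter, 4 were higher and 1 lower in blood than in bone marrow. Of all genes tested, 20.6% were higher and 23.6% lower, and nothing particular to the receptors is read from this count.

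**Figure D3:**
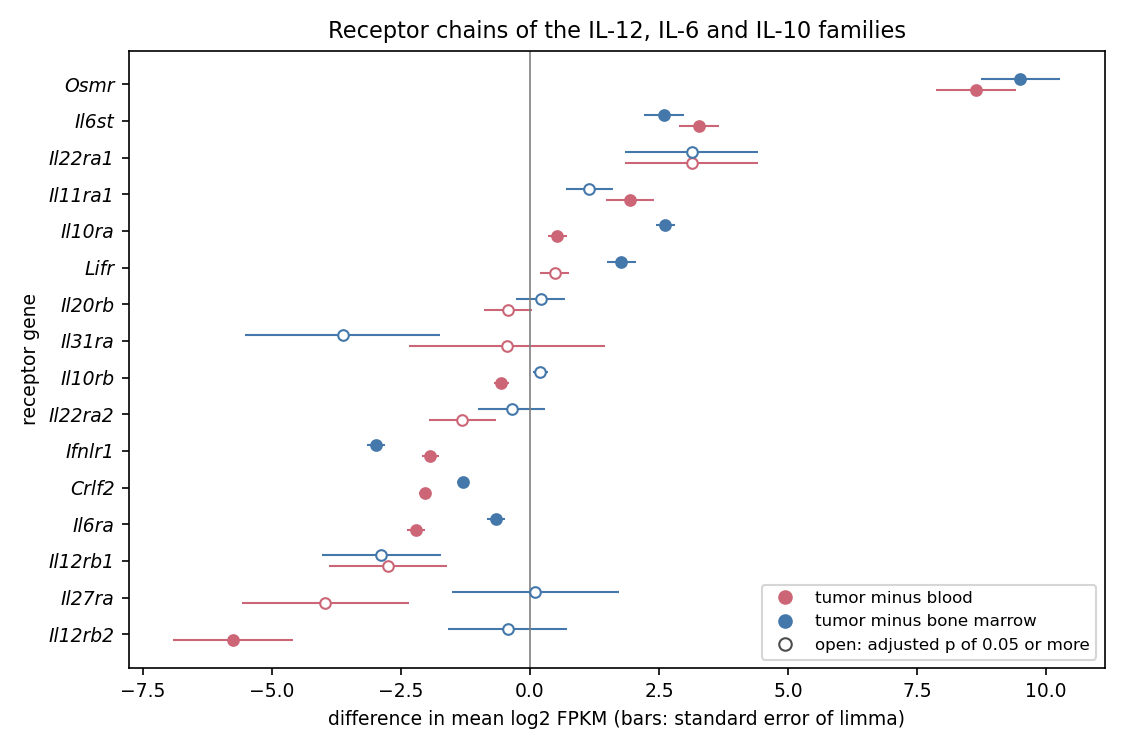
The difference in mean log2 FPKM between tumor and blood (red) and tumor and bone marrow (blue) is shown for the 16 receptor genes tested with the filter on reads, with bars for the standard error and filled points for adjusted p under 0.05. Osmr and Il6st lie to the right for both comparisons, at 8.64 and 3.28 against blood, while Il6ra, Crlf2 and Ifnlr1 lie to the left. Osmr and Il12rb2 were tested only because of the compartment where they were high. Crlf2, a chain for TSLP, is drawn with the list although it is outside these families.

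Of 12 genes for JAK kinases, STAT factors and their inhibitors, 11 passed the FPKM filter, with 0 higher and 7 lower in tumor than in blood, beside 28.1% and 34.5% of all genes, and 3 higher and 7 lower than in bone marrow, beside 22.4% and 32.9%. With plain library totals it was 3 higher and 4 lower in either comparison. Of all 7794 genes, 2923 were then higher and 1898 lower than in blood, and 2601 higher and 1634 lower than in bone marrow. The list was not tested as a group. Stat5b fell by 2.48 and Jak1 by 1.48 against blood on the log2 scale (limma adjusted p = 4.51e-05 and 2.74e-05). Stat3, the main STAT of the IL-6 and IL-10 receptors, fell by 1.42 against blood and by 0.57 against bone marrow (limma adjusted p = 2.73e-05 and 0.00348), and the second difference was -0.12 with totals in place of the authors' scaling (adjusted p = 0.251 in limma). Pias3, an inhibitor of STAT3, differed by -1.29 against blood and by -1.29 against bone marrow (limma adjusted p = 0.00513 and 0.0062). Socs3, a feedback inhibitor that STAT3 induces and a gene named here after its values were seen, exceeded bone marrow by 3.51 in tumor (adjusted p = 8.77e-06 in limma) and by 3.08 in blood. Between tumor and blood Socs3 differed by 0.44 (limma adjusted p = 0.109), and that difference passed with plain library totals (0.89, adjusted p = 0.0037), with voom on the reads, with quantile normalization and without bone marrow replicate 1.

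Among 18 transcription factors listed as regulators of cytokine genes, 17 were tested with the FPKM filter. Against blood 4 were higher in tumor and 7 lower, beside 28.1% and 34.5% of all genes, and against bone marrow 9 were higher and 2 lower, beside 22.4% and 32.9%. The list was not tested as a group either. With plain totals the counts were 7 and 3 against blood and 10 and 2 against bone marrow. Over all 7794 genes they were 2923 and 1898 against blood and 2601 and 1634 against bone marrow. The 4 that were higher than in both were Fosl1, Jun and Fos, which form AP-1, and Nfkbiz, an inducible cofactor of NF-kB. Jun was 3.07 above blood and 2.46 above bone marrow on the log2 scale (limma adjusted p = 2.61e-05 and 9.76e-05) and Nfkbiz by 2.34 and 3.36 (adjusted p = 9.94e-06 and 2.97e-06). Fos rose by 2.14 and 1.60 (adjusted p = 6.35e-06 and 2.53e-05 in limma). Fosl1 had 14, 18 and 9 reads in bone marrow, 3, 1 and 0 in blood and 210, 218 and 335 in tumor, and passed the filter only through tumor, so its call is no evidence of a difference. The 2 that were lower than in both, named because they are so few, were Irf8 and Spi1, factors of the myeloid lineage. Irf8 fell by 1.56 against blood (limma adjusted p = 0.0071) and by 3.17 against bone marrow. It passed the FPKM filter only through bone marrow, so that call against bone marrow is no evidence of a difference. With the filter on reads, Irf8 was called lower in both comparisons, and it had 36 or more reads in every library. Spi1 varied between libraries (1608, 3230 and 7642 reads in blood), and its fall against blood was lost without blood replicate 2 or 3 or tumor replicate 1 (limma adjusted p from 0.0507 to 0.0862). It was also lost with plain library totals, quantile normalization or no filter (limma adjusted p = 0.0811, 0.0639 and 0.166). Cebpb varied more, with 3, 87 and 1739 reads in tumor, and passed in none of the 3 comparisons with the FPKM filter.

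Genes of the lymphocytes that respond to IL-23 were looked for in the same libraries. Il17a, Il17f and Il22 had 0 reads in all 9 libraries. Csf2, encoding GM-CSF, had 14, 11 and 12 reads in tumor and 0 in the others, at least 2.70-fold above blood and 3.65-fold above bone marrow. A further pair of genes from this list were tested with the filter on reads and are named after their values were seen. Il1r1, the IL-1 receptor, had 108, 84 and 187 reads in tumor and 0 to 12 elsewhere, and was called higher against both compartments, but no longer against bone marrow without bone marrow replicate 2 or without tumor replicate 1 or 3. Ccr6, a chemokine receptor, had 7, 0 and 0 reads in tumor and 14, 4 and 6 in blood, and its call against blood was lost in 9 of 11 alternatives. The 12 markers of T, B and NK lymphocytes summed to 7.41 to 15.9 RPM in tumor, below blood (106 to 182) and bone marrow (27.4 to 59.1).

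Markers of other cells moved with these results. Fibroblast and epithelial marker sums were higher in the tumor libraries, as were Il23a, Osm, Lif, Il6, Il10, Clcf1, Osmr and Il6st, and their part in those levels was not tested. All 10 epithelial and all 10 fibroblast markers had reads in every tumor library. Epithelial markers summed to 3383, 2658 and 4998 RPM in tumor libraries 1, 2 and 3, and Il23a was 80.4, 126 and 59.3 RPM in the same libraries. Clcf1 was 27.7, 20.9 and 44.2, Il6 4.03, 1.98 and 4.53, Osmr 25.5, 24.9 and 28.3 and Il6st 41.1, 39.5 and 58.7 RPM. These 4 genes stood in the same order over the 3 tumor libraries as the epithelial sum, and Il23a in the opposite order. Osm (3938, 4100 and 3019 RPM) and Il10 (1.29, 3.70 and 0.881) stood in the order of Il23a, and Lif (7.25, 14.5 and 11.7) in neither. Macrophage sums (530, 587 and 412 RPM) and dendritic cell sums (60.4, 63.1 and 50.2) also stood in the order of Il23a. An order over 3 libraries is a description, and the cells behind it were not tested. Fibroblast markers lay between 987 and 1124 RPM, a narrower range. Macrophage markers summed to 412 to 587 RPM in tumor, against 1494 to 1672 RPM for blood libraries and 447 to 501 RPM for bone marrow. Most of the blood sum came from Csf1r, with 4796, 6885 and 5114 reads, against 1254, 1709 and 1454 in tumor. C1qb had 29, 34 and 51 reads in bone marrow, 29, 19 and 21 in blood and 87, 70 and 60 in tumor. Trem2 had 6, 4 and 1 in blood and 19, 14 and 16 in tumor, but 19, 21 and 32 in bone marrow. Apoe had 805, 1149 and 955 in blood and 754, 982 and 776 in tumor. The macrophage markers thus did not move together. Dendritic cell markers summed to 50.2 to 63.1 RPM in tumor, against 136 to 186 RPM for blood and 28.1 to 48.7 RPM for bone marrow. Among them Siglech had 0 reads in tumor and Batf3 had 1, 0 and 0, whereas Fscn1 had 42, 44 and 92 reads in tumor and 0 to 3 elsewhere. Endothelial markers were at 105 to 155 RPM in tumor, 114 to 167 RPM for blood and 17.9 to 28.0 RPM for bone marrow. Vwf led in blood with 315, 602 and 305 reads, while Kdr had 48, 44 and 51 reads in tumor and 1, 2 and 1 in blood, and Eng 230, 123 and 139 in tumor and 1, 7 and 7 in blood. Mast cell markers were at 4.53 to 9.67 RPM in tumor.

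**Figure D4:**
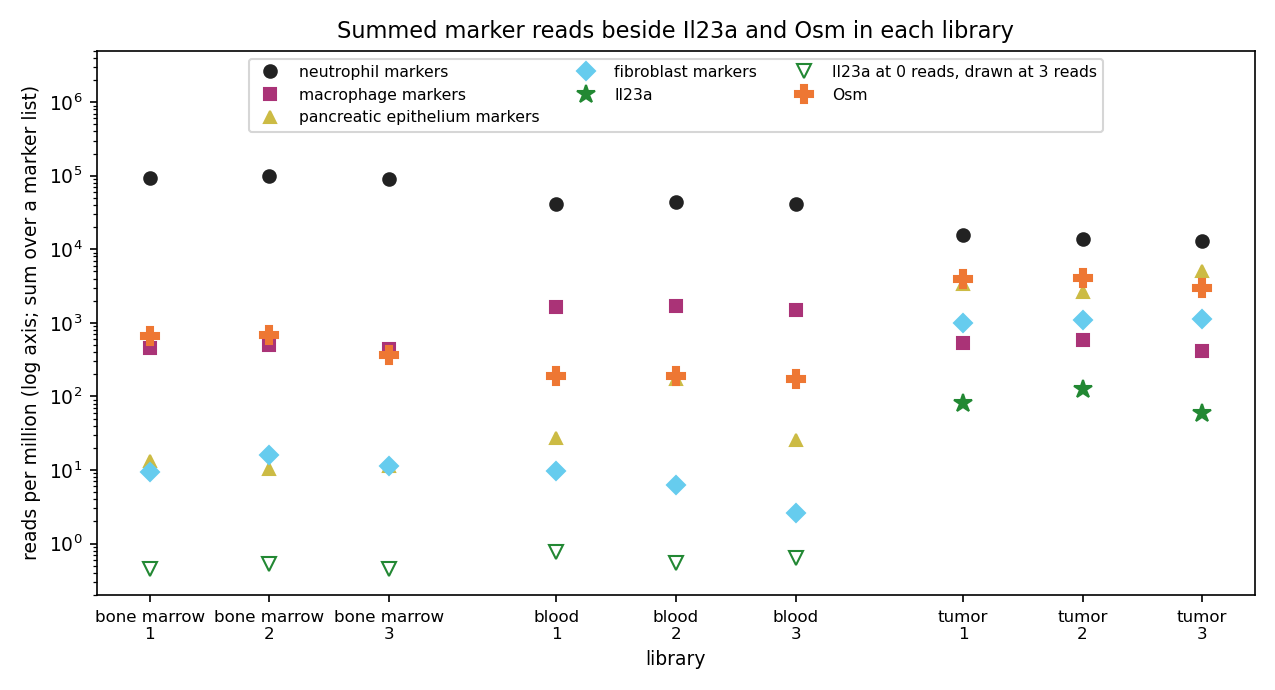
RPM on a log axis are shown for each library, summed over the markers of neutrophils, macrophages, pancreatic epithelium and fibroblasts, beside Il23a and Osm. Open triangles mark 0 reads of Il23a, drawn at the level of 3 reads. Epithelial markers reach 2658 to 4998 in tumor, where Il23a is at 59.3 to 126.

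The 10 genes whose log2 FPKM followed that of Il23a most closely across the 9 libraries were BC023105, Gm37024, Ankrd1, Timp1, Gm5345, Ccrl2, Gm14303, Sox18, Ccl3 and Reg3a, with Pearson r between 0.996 and 1.000. The coefficients describe 9 points in which tumor is set against the other compartments, and they rest on the values that selected the set. In 8 of the 10 genes the other 6 libraries all had 0 reads, as for Il23a, and several of these 8 had few reads in tumor, such as BC023105 with 14, 21 and 15. Ccl3, a chemokine of activated myeloid cells, had 11154, 15897 and 7709 reads in tumor and 42 to 72 elsewhere. Ccrl2, an atypical chemokine receptor of neutrophils and macrophages, had 23815, 33124 and 22295 in tumor and 61 to 126 elsewhere. Ankrd1 had 175, 313 and 357 reads in tumor, Reg3a 41, 52 and 81, Sox18 17, 31 and 36 and Timp1 82, 69 and 57, all with 0 elsewhere. Within tumor these genes thus differed in order, with Ccl3 and Ccrl2 highest in library 2, Ankrd1, Reg3a and Sox18 in library 3 and Timp1 in library 1.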

How the data were processed

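The authors mapped paired-end reads with STAR 2.5.2b to GRCm38 and counted them with featureCounts 1.5.0 on GENCODE M7 genes, per the study's methods and the submitters' processing notes. They deposited log2 FPKM values for 46517 genes in 9 libraries, each a SMARTSeq v2 library from sorted neutrophils. From the values, the authors added a constant of about 0.25 reads before taking log2, scaled the library sizes, and used the genomic span as gene length for 84.5% of the genes found in GENCODE M21. Whole reads were recovered for all 46517 genes within 0.001 reads, a procedure tested on simulated data. FPKM per exon length was recomputed from these reads with merged exons of GENCODE M21. Read intervals are exact 95% intervals for a ratio of Poisson counts, and with no molecular identifiers they cover counting error only.

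Compartments, named by the labels, were compared with limma 3.58.1 (lmFit, eBayes with a trend, 1 coefficient per compartment) in R 4.3.3 on the deposited log2 FPKM of genes over 0 in at least 3 libraries. P-values were adjusted over all genes tested by the Benjamini-Hochberg method at 0.05. A filter of 5 reads in any library was fitted in the same way, because the span lengths remove long genes. The study used limma-voom, which is an alternative here. Exact tests of 3 against 3 libraries cannot give p below 0.1 and were not used. Replicates are pools of 5 mice, so p-values measure the spread between pools. The fit was tested on simulated data with known changes.

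The members and gene lists were chosen with earlier results of these data known. Named genes are the 9 members, up to 4 genes of each list with the largest difference from blood among those called against both compartments, 10 receptor chains, Il17a, Il17f, Il22, Csf2, markers of other cells and the 10 genes closest to Il23a. Genes outside this rule (Il11ra1, Socs3, Irf8, Spi1, Cebpb, Il1r1, Ccr6, and the other ligands listed at 0 reads) were named after their values were seen. Some items are not reported here. Alternatives covered filters, pseudocounts, scaling, voom, a replicate block and leaving out each library. Their combinations with the filter on reads were chosen after seeing the data.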

Additional observations from a re-analysis of the deposited data

How the results depend on the processing

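The count of members higher in tumor than blood, 2, was 4 with no filter and 5 with the filter on reads or with limma-voom on the reads, and against bone marrow it was 5 with limma-voom in place of 2. Members lower in tumor, 2 in either comparison, were 1 with no filter, 1 with the stricter filter (log2 FPKM over 2) and, against blood, 1 with plain library totals, and ranged from 1 (without blood replicate 2) to 2 when single libraries were left out. Members differing between blood and bone marrow numbered 2 in place of 1 with the filter on reads, and 1 to 2 when libraries were left out. Receptor genes higher than in blood, 1, were 3 with no filter and 4 with the filter on reads or limma-voom, and 0 to 1 with libraries left out. Higher than in bone marrow, also 1, they were 4 with no filter or the filter on reads, 2 with plain totals or quantile normalization and 5 with limma-voom. Receptor genes lower than in blood, 4, were 7 with limma-voom. The different numbers of genes tested under each filter account for part of these counts, and the cause was otherwise not tested. For Il12b to Il23a level in tumor, the mean log2 ratio of -7.47 was -10.51 with the deposited lengths and -11.06 with 0.25 reads in place of the limit of 3 reads, and for Il12a to Il23a level in tumor -5.99 became -8.42 with the deposited lengths. The counts of members in tumor rest on the contrast that selected them, and nothing is read from how they held. No call on a named gene turned into a call in the opposite direction. Some differences that were not called did change sign between alternatives. Cebpb in tumor against bone marrow ranged from -3.28 to 1.08, and Rel in tumor against blood from -0.29 to 0.35. With plain library totals the larger count against blood passed from lower to higher for receptor genes under the filter on reads. The same held for transcription factors and for all genes under the FPKM filter. Counts under 3 reads per library limit Il12b, Il6 and Il10 outside tumor.

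No pairing by equal library numbers was detected. The correlation of deviations exceeded 0.1 in 1 of 9 same-numbered pairs and ranged from -0.0714 to 0.108. A differently numbered pair, blood 3 with tumor 2, reached 0.106. Such correlations, with 3 libraries per compartment, cannot exclude that equal numbers mark the same experiment. With the replicate block, 2 members differed between blood and bone marrow in place of 1, Ebi3 being added with a limma adjusted p of 0.0243.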
